A study of Mus musculus with 8 samples.

Results

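The mouse genome carries 3 neighbouring copies of the osteocalcin gene, Bglap, Bglap2 and Bglap3, and this report describes all 3, alone and as their sum, of 31053 genes listed for each library. The copies were taken by their symbols. They were selected on measured values: Bglap had been among the genes that differed most between Het and WT mature osteoblasts (OBs) in an earlier fit of the same libraries, so values and fold changes of the copies in that contrast are given here as a description, and no call of a copy from it is used. Calls of other genes in that contrast are given for the gene lists. Single cells of parietal bone, a flat bone of the skull vault, were profiled by droplet-based sequencing with unique molecular identifiers (UMIs), which count captured transcripts. There were 4 libraries from WT pups (numbered 1, 2, 5 and 6) and 4 from pups heterozygous for G610C (Het 3, 4, 7 and 8), a Col1a2 allele (strain B6.129(FVB)-Col1a2tm1Mcbr/J) that replaces a glycine of the collagen triple helix and models osteogenesis imperfecta, on a C57BL/6J background. Pups were 4 to 5 days old, and each library pooled cells of several pups with the same genotype, so the library was the replicate and p-values measured the spread between pooled preparations. No treatment was given, and the allele was carried by every cell. Libraries 1 to 4 were made with kit version 3 and libraries 5 to 8 with kit version 3.1, with 2 WT and 2 Het libraries in each. Kit version coincided with the version of the counting software. It cannot be told apart from other differences between these sets of libraries, such as cell makeup or preparation.

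Osteocalcin is a small secreted protein of the bone matrix. Its propeptide is cut off in the secretory pathway, and its glutamate residues are carboxylated by a vitamin K-dependent enzyme, which lets it bind calcium and hydroxyapatite. It is known as a late marker of the OB lineage that is transcribed mainly in mature OBs and osteocytes, under control of RUNX2 and other factors. In the mouse, Bglap and Bglap2 are the bone-expressed copies, while Bglap3, also called osteocalcin-related gene, is known from other tissues such as kidney.

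The copies lie within a short stretch of chromosome 3 on the minus strand (GRCm38, GENCODE M21). Bglap (ENSMUSG00000074483) is at chr3:88383501-88384464, Bglap2 (ENSMUSG00000074486) at chr3:88377736-88378699 and Bglap3 (ENSMUSG00000074489) at chr3:88368616-88372743. Each copy has a coding sequence of 288 bases in 4 coding exons, for 95 residues. The 3 coding sequences are printed because their likeness limits how reads can be told apart. They run from start to stop codon, and capitals mark the bases that differ from Bglap (in Bglap itself, those that differ from Bglap2).
Bglap: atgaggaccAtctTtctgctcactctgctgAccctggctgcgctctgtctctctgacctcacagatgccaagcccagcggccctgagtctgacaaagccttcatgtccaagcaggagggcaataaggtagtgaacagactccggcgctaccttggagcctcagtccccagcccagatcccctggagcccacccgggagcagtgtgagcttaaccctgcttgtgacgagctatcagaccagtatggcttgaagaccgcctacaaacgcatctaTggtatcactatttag
Bglap2: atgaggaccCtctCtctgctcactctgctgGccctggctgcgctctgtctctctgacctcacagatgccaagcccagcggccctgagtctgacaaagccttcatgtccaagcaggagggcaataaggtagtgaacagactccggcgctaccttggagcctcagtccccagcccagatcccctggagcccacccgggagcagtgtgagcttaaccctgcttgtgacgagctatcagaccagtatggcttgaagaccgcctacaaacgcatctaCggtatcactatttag
Bglap3: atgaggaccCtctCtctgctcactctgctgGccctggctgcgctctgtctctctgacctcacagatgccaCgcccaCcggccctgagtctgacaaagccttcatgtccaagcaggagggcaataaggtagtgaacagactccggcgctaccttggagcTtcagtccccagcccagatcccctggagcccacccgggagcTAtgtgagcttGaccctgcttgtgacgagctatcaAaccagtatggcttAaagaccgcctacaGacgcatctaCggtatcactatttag
Bglap and Bglap2 differed at 4 of the 288 bases (98.6% identity), which changed 3 residues. Bglap3 differed from Bglap at 13 bases and from Bglap2 at 9, and these changed 9 and 6 residues. Of all windows of 90 bases in the main transcript of Bglap, 60.4% occurred unchanged in a transcript of another copy, and for Bglap2 this share was 63.4%. For Bglap3, whose transcript is longer, it was 4.78%. Reads in shared stretches cannot be assigned to 1 copy, so the split of UMIs between Bglap and Bglap2 was treated as uncertain, and the sum of the copies was used wherever a level did not need the split.

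The 250 bases upstream of the Bglap start (RefSeq, GRCm38.p6, minus strand, chr3:88384467-88384716) are printed as background on the control by RUNX2. Capitals mark the only match of the RUNX core motif ACCACA or its reverse complement TGTGGT, which began 132 bases before the start.
Bglap promoter: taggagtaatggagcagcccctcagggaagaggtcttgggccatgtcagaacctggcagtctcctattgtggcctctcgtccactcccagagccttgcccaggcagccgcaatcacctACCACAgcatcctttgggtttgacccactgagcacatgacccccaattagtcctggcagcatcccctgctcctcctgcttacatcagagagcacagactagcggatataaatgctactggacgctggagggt
These letters occur in 4614 of all 32851 promoter windows of this length, so the match is a description. None of the 3 listed starts of Bglap3 had these letters in the window. No start of Bglap2 was available, and the part of these sequences in the levels of the copies was not tested.

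Of 68625 barcodes, 46420 passed a minimum of 500 genes and a maximum of 10% of mitochondrial UMIs, with 30480239 to 85162035 UMIs per library. An OB had 10 or more UMIs of Col1a1 and, for any 2 of the genes Runx2, Sp7 and Ibsp, 2 or more UMIs. The 2671 OBs were divided by Col1a1, the α1 chain of type I collagen, as percent of the cell's UMIs into 379 early OBs (eOBs, under 0.75), 1217 differentiating OBs (dOBs, 0.75 to 3.5) and 1075 mature OBs (mOBs, over 3.5). The copies were not used to select cells. The 43749 other kept cells served as a measure of free RNA and of cells outside the rule. The libraries differed in their cells. Of the other cells, 54.1% and 43.5% in WT 1 and 2 were haematopoietic-like (at least 3 of the haematopoietic markers and under 3 of each other class), against 0.803% to 9.20% in the other 6 libraries. Chondrocyte-like cells were 70.9% to 85.1% in kit version 3.1, 40.6% and 27.3% in Het 3 and 4, and 3.11% and 4.24% in WT 1 and 2. At least 3 chondrocyte markers were also detected in 68.2% to 82.9% of mOBs of kit version 3.1 and in 1.37% to 27.8% of mOBs of kit version 3. The part of this makeup in the results below was not tested. Pairs of libraries shared few cell barcodes, and none among OBs.

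In mOBs the summed level of the copies differed between genotypes and between kit versions. The sum of the copies was 2.09% and 2.31% of UMIs in WT 1 and 2 and 0.702% and 0.888% in WT 5 and 6. In Het mOBs it was 0.468% and 0.489% in Het 3 and 4 and 0.0848% and 0.485% in Het 7 and 8. All Het libraries were therefore below all WT libraries, Het 7 was far below the other Het libraries, and WT levels were higher in kit version 3 than in 3.1. The mean was 1.498% ± 0.820 (SD, n = 4) in WT and 0.382% ± 0.198 (SD, n = 4) in Het, a ratio of 3.92, with 4.60 within kit version 3 and 2.79 within kit version 3.1.

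**Figure D1:**
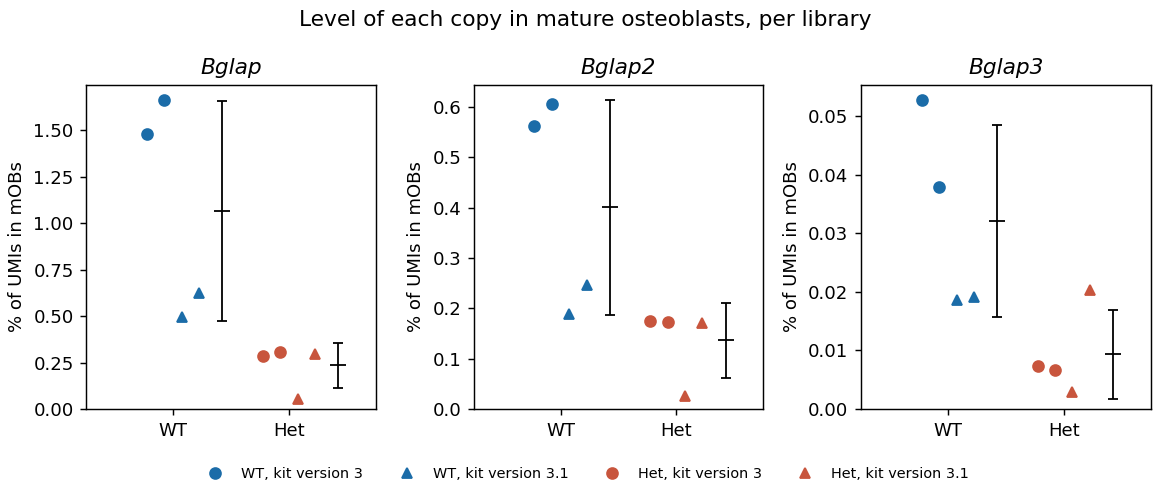
Level of each copy in mOBs as percent of UMIs on linear axes that differ between panels, with 1 point per library (circles kit version 3, triangles 3.1) and the mean ± SD of 4 libraries in black. The WT points of Bglap lie between 0.494% and 1.66%, all above the Het points, and the Het point near 0 in each panel is Het 7.

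Bglap made up most of the sum. It was 1.48%, 1.66%, 0.494% and 0.623% of UMIs in WT 1, 2, 5 and 6 and 0.286%, 0.309%, 0.0563% and 0.293% in Het 3, 4, 7 and 8. The groups did not overlap. Bglap2 was 0.561%, 0.606%, 0.189% and 0.246% in the WT libraries and 0.175%, 0.173%, 0.0256% and 0.171% in the Het libraries, in the same order. These groups did not overlap either, although the highest Het and the lowest WT library were close. Bglap3 was the scarce copy, at 0.0527%, 0.0379%, 0.0187% and 0.0192% in WT and 0.00739%, 0.00669%, 0.00296% and 0.0203% in Het. Het 8 was above WT 5 and 6, so for Bglap3 the groups overlapped. Groups in which all Het libraries lay below all WT libraries were seen for 0.759% of the 9623 genes tested in mOBs. These are 3′ UMI counts, not corrected for transcript length (440, 471 and 717 bases), and for the first 2 copies they depend on how reads were assigned.

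In the edgeR fit over all genes with kit version in the model, the log2 fold changes of Het over WT in mOBs were -2.08 for Bglap (SE 0.40), -1.49 for Bglap2 (SE 0.42) and -1.87 for Bglap3 (SE 0.49). Since this contrast chose Bglap, no p is given. The log2 fold change of Bglap ranged from -2.84 without Het 8 to -1.83 without Het 7. Among the 503 mOBs of all 1075 that carried under 3 markers of any other class, the fold changes were -1.86 for Bglap, -1.60 for Bglap2 and -2.08 for Bglap3, without Het 8, which had 8 such cells. With all mOBs and without Het 8 they were larger, at -2.84, -2.33 and -2.78.

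**Figure D2:**
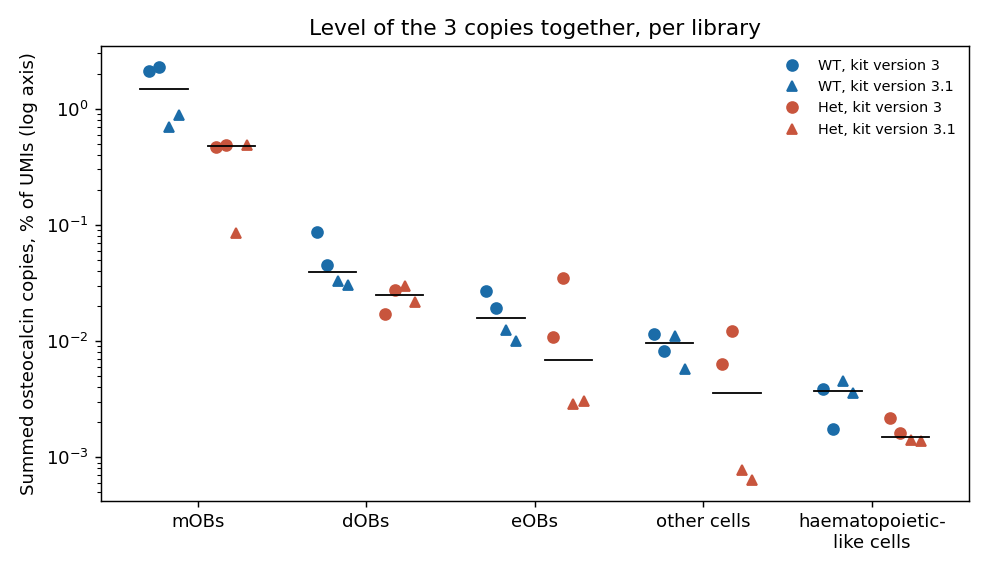
Sum of the copies as percent of UMIs (log axis) in mOBs, dOBs, eOBs, all other cells and haematopoietic-like cells, with 1 point per library and the group median as a line. The level falls from 0.0848% to 2.31% in mOBs to 0.0172% to 0.0867% in dOBs, and the lowest level is in haematopoietic-like cells or, in Het 7 and 8, in other cells.

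The copies rose steeply with the stage of the OB, and this comparison did not use the contrast that chose them. In every library mOBs had more of the sum than dOBs, by 2.86 times (Het 7) to 50.6 times (WT 2), with a median of 23.2 over the 8 libraries. The mean difference was 4.26 ± 1.21 on the log2(percent + 0.001) scale (SD, n = 8, exact sign-flip test over libraries, two-sided, adjusted p = 0.013, unadjusted p = 0.0078, the smallest 8 libraries allow). The sum was 0.0867%, 0.0455%, 0.0329% and 0.0303% in dOBs of WT 1, 2, 5 and 6 and 0.0172%, 0.0278%, 0.0297% and 0.0219% in Het 3, 4, 7 and 8. It was 0.0270%, 0.0193%, 0.0124% and 0.00998% in eOBs of WT 1, 2, 5 and 6 and 0.0108%, 0.0348%, 0.00286% and 0.00306% in Het 3, 4, 7 and 8. From eOBs to dOBs the sum rose in 7 of 8 libraries, by 1.44 ± 1.03 on the log2 scale (SD, n = 8, exact sign-flip test, adjusted p = 0.017), with Het 4 as the exception. From other cells to eOBs it rose in 8 of 8 libraries by 0.96 ± 0.42 (SD, n = 8, exact sign-flip test, adjusted p = 0.013). This last step was small and did not pass when each cell had the same weight (0.74, exact sign-flip test, adjusted p = 0.13). Without the OBs that carried at least 3 markers of another class, it was 1.27 (adjusted p = 0.063) and the step from eOBs to dOBs was 1.02 (adjusted p = 0.075, exact sign-flip tests), with 6 libraries left, so few that these tests could hardly pass.

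All 3 copies rose from eOBs to dOBs and from dOBs to mOBs, and the size of their steps was not compared by a test. From dOBs to mOBs the log2 difference was 4.49 ± 1.22 for Bglap, 3.74 ± 1.20 for Bglap2 and 3.26 ± 1.16 for Bglap3 (SD, n = 8, exact sign-flip test, adjusted p = 0.013 for each, higher in 8 of 8 libraries). The pseudocount of 0.001 lowers the step of Bglap3, since its dOB level was 0.000192% to 0.00122%: as plain ratios, the median over libraries was 29.2 for Bglap, 17.01 for Bglap2 and 24.2 for Bglap3. From eOBs to dOBs the difference was 1.25 ± 0.97 for Bglap, 1.45 ± 0.98 for Bglap2 and 0.52 ± 0.29 for Bglap3 (SD, n = 8, exact sign-flip test, adjusted p = 0.017, 0.017 and 0.013). These calls were lost for all 3 copies in the 6 libraries left without mixed OBs (0.78, 1.38 and 0.62), for Bglap2 under 5% mitochondrial UMIs (1.25) and for Bglap3 with cells thinned to 2000 UMIs (0.54). Bglap3 in eOBs rested on at most 6 UMIs in a library and had no UMI in 3 of the 4 Het libraries. Its eOB level did not differ detectably from that of other cells (difference -0.02 ± 0.22, SD, n = 8, exact sign-flip test, adjusted p = 0.82).

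**Figure D3:**
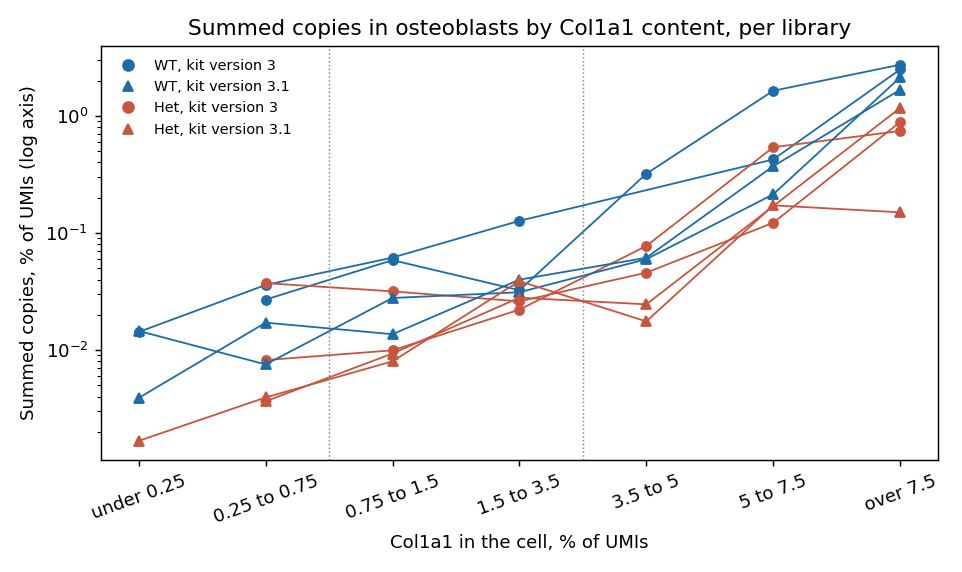
Sum of the copies in OBs (percent of UMIs, log axis) by the Col1a1 content of the cells, 1 line per library, with dotted lines at the stage limits; bins with under 10 cells of a library are left out and the line bridges them. The lines stay under 0.13% up to a Col1a1 content of 3.5% and reach 0.15003% to 2.73% above 7.5%.

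Within OBs the level did not rise evenly with Col1a1. With Col1a1 from 1.5% to 3.5%, just under the limit that separates dOBs from mOBs, the sum had a median of 0.0362% over WT and 0.0271% over Het libraries, and from 3.5% to 5% just above the limit, it had 0.0615% over 3 WT and 0.0352% over 4 Het libraries. Libraries differed at this limit: WT 2 went from 0.0325% to 0.320% and Het 3 from 0.0222% to 0.0775%, while Het 7 went from 0.0388% down to 0.0176%, and WT 1 had too few cells above it. The sum then rose to a median of 0.398% in WT and 0.172% in 3 Het libraries from 5% to 7.5%, and to 2.31% and 0.814% above 7.5%. In the highest class, WT 1, 2, 5 and 6 had 2.49%, 2.73%, 1.67% and 2.13%, and Het 3, 4, 7 and 8 had 0.743%, 0.885%, 0.15003% and 1.17%. These values belong to the contrast that chose Bglap and are a description. The Col1a1 content of the summed cells in this class was 12.4% to 13.8% in WT and 9.37% to 13.96% in Het. Over all mOBs of kit version 3, Col1a1 was 12.3% and 10.6% in WT 1 and 2 and 6.69% and 8.22% in Het 3 and 4. In kit version 3.1 it was 7.84% and 8.27% in WT 5 and 6 and 5.80% and 8.41% in Het 7 and 8. Both Het libraries were thus below both WT libraries in version 3, and in 3.1 Het 7 was below and Het 8 above both. The part of Col1a1 content in the levels of whole mOB sums was not tested.

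Osteocalcin transcripts were spread unevenly over mOBs, more so in the libraries of kit version 3.1. The 10% of mOBs with the most UMIs of the copies held 46.2% and 46.8% of them in WT 1 and 2, 60.5% and 68.2% in Het 3 and 4, 75.2% and 78.7% in WT 5 and 6, and 80.6% and 82.2% in Het 7 and 8. The median mOB had 0.860% and 0.879% in WT 1 and 2, but 0.0264% and 0.0520% in WT 5 and 6 and 0.00739% to 0.0686% in the Het libraries. Within each kit version both WT medians were above both Het medians (0.0686% and 0.0351% in Het 3 and 4, 0.00739% and 0.0179% in Het 7 and 8). The highest single cell in WT 5 and 6 was at 11.6% and 12.9% of UMIs. It was at 10.4% and 9.84% in WT 1 and 2 and at 2.35% to 4.78% in the Het libraries. Cells with at least 1% were 46.6%, 48.1%, 17.1% and 17.3% of mOBs in WT 1, 2, 5 and 6 and 13.9%, 14.6%, 1.90% and 16.7% in Het 3, 4, 7 and 8. Het 8 was within 1 percentage point of WT 5.

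**Figure D4:**
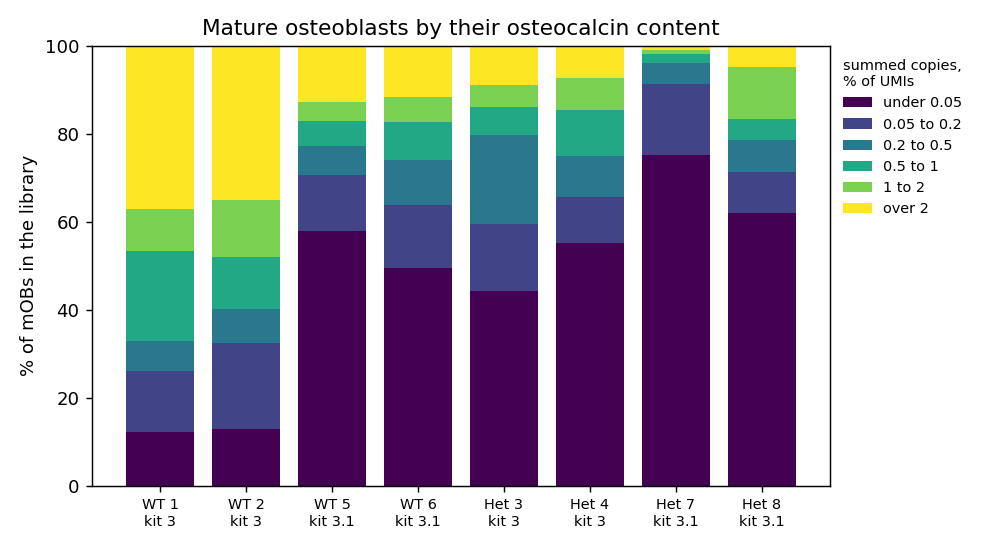
Share of mOBs in each library by the sum of the copies in the cell as percent of UMIs, as stacked bars that add to 100%. Cells over 2% make up 11.5% to 37.0% of mOBs in WT and 0.952% to 8.86% in Het libraries, and cells under 0.05% make up 12.3% to 57.9% in WT and 44.3% to 75.2% in Het.

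At least 1 UMI of a copy was found in 98.6%, 92.2%, 74.6% and 82.2% of mOBs in WT 1, 2, 5 and 6 and in 86.1%, 71.4%, 61.0% and 59.5% in Het 3, 4, 7 and 8. With 42 cells, the exact 95% interval for Het 8 was 43.3% to 74.4% and covers counting error only. Median depth of mOBs was 12348 to 21116 UMIs. Haematopoietic-like cells, which should lack the gene, had a UMI in 5.90% to 31.8% of cells at median depths of 3121 to 10733 UMIs. Thinned to 2000 UMIs per cell, the share in mOBs was 51.0% to 85.7% in WT and 27.9% to 59.5% in Het, against 0% to 12.02% in haematopoietic-like cells. In eOBs the thinned share was 3.85% to 28.4%, which overlapped that of haematopoietic-like cells.

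In haematopoietic-like cells the sum was 0.00384%, 0.00176%, 0.00456% and 0.00360% of UMIs in WT 1, 2, 5 and 6 and 0.00218%, 0.00161%, 0.00140% and 0.00138% in Het 3, 4, 7 and 8. The last 2 values rested on 8 and 6 UMIs. The edgeR fold changes in these cells were -1.11 for Bglap (SE 0.35, adjusted p = 0.21) and -0.88 for Bglap2 (SE 0.44, adjusted p = 0.35), while Bglap3 was too low to test, and 4 of 10438 genes were called (0.0383%). Over all other cells the sum was 0.0116%, 0.00820%, 0.0110% and 0.00576% in WT 1, 2, 5 and 6 and 0.00635%, 0.0123%, 0.000784% and 0.000638% in Het 3, 4, 7 and 8. Het 4 was thus the highest of all libraries and Het 7 and 8 the lowest. The log2 fold changes were -2.09 for Bglap, -1.67 for Bglap2 and -1.96 for Bglap3 (SE 0.74, 0.71 and 0.50, edgeR adjusted p = 0.18, 0.19 and 0.17). No gene of 16502 was called by edgeR in other cells (0%), with 4234 at an unadjusted p under 0.05, whereas DESeq2 called 1947 genes, all 3 copies among them. The log2 difference of Bglap was -0.50 within kit version 3 and -3.73 within 3.1. The mOBs held 46.8% to 90.03% of all UMIs of the copies in a library, and the part of free RNA in the levels of other cells was not tested.

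Other cells with at least 10 UMIs of Col1a1, which fall short of the OB rule, had more of the copies than those with fewer in every library, 0.00154% to 0.0749% against 0.000493% to 0.00381%. Endothelial-like cells were at 0.00103% to 0.00457%, near the haematopoietic-like level. Chondrocyte-like cells were at 0.000579% to 0.0101%. Smooth muscle or pericyte-like cells were at 0.0670% in WT 1 (696 UMIs in 145 cells), far above the 0.000658% to 0.00514% of the other 7 libraries. Fibroblast-like and erythroid-like cells held at most 79 and 161 UMIs of the copies in a library.

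The genotype comparison was tested in dOBs and eOBs, whose cells did not enter the contrast that chose Bglap. The part of free RNA from mOBs of the same library in their levels was not tested. In dOBs the log2 fold changes of Het over WT were -0.91 for Bglap (SE 0.30, edgeR adjusted p = 0.58), -0.90 for Bglap2 (SE 0.24, adjusted p = 0.58) and -0.25 for Bglap3 (SE 0.36, adjusted p = 0.91). Without 1 library they ranged from -1.19 (Het 7) to -0.55 (WT 1) for Bglap and from -1.14 (Het 7) to -0.59 (WT 1) for Bglap2. Under 5% mitochondrial UMIs they were -0.52 and -0.61. None of the copies was called, and neither was nearly any gene: 1 of 9857 was called (0.0101%), Klhl33, while 740 had an unadjusted p under 0.05 and DESeq2 called 4. The sum in dOBs did not overlap between groups, but the lowest WT value (0.0303%) and the highest Het value (0.0297%) nearly touched. The log2 difference of the sum was -0.89 (exact permutation test over 70 assignments, two-sided, p = 0.029, the smallest possible, adjusted p = 0.086 over 3 cell groups). It was -1.48 within kit version 3 and -0.30 within 3.1, and without WT 1 it was -0.58. For Bglap2 alone the dOB groups did not overlap (0.0141% to 0.0339% in WT, 0.00760% to 0.0127% in Het), as for 0.568% of the genes tested in dOBs.

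In eOBs the fold changes were -0.84 for Bglap (SE 0.41) and -1.10 for Bglap2 (SE 0.49), both with an edgeR adjusted p of 0.9999. Without 1 library they ranged from -1.55 (Het 4) to -0.43 (Het 7) for Bglap and from -2.02 (Het 4) to -0.72 (Het 7) for Bglap2, and the difference of the sum from -1.58 (Het 4) to -0.51 (Het 7). No gene of 8118 was called (0%), with 310 at an unadjusted p under 0.05 and 3 called by DESeq2. The summed copies differed by -0.92 on the log2 scale (exact permutation test, two-sided, n = 4 per group, p = 0.31, adjusted p = 0.31), with -0.22 within kit version 3 and -1.61 within 3.1. With OBs that held markers of another class left out, Het 7 and 8 had 7 and 4 eOBs and dropped out, and the difference of the other 6 libraries was 0.11, with no Het library of kit version 3.1. In other cells the sum differed by -1.26 (exact permutation test, n = 4 per group, p = 0.26, adjusted p = 0.31), with -0.12 within kit version 3 and -2.40 within 3.1. None of these differences of the sum passed its permutation test. With 4 against 4 libraries, 1 cell group alone at the smallest p of this test reaches an adjusted p of only 0.086 over 3 groups. The test could therefore not pass for dOBs alone, whatever the size of the difference. Whether the fold change in mOBs exceeded that in dOBs was not tested, since the mOB contrast chose the gene.

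The split among the copies was compared as the share of Bglap2 and Bglap3 in their summed UMIs. In mOBs Bglap2 made up 26.8%, 26.3%, 26.9% and 27.7% in WT 1, 2, 5 and 6, a narrow range, and 37.3%, 35.4%, 30.2% and 35.3% in Het 3, 4, 7 and 8. All Het shares were above all WT shares (34.6% ± 3.05 against 26.9% ± 0.598, SD, n = 4), a description since it uses the mOB contrast. In other cells the shares were 31.2% to 33.2% in WT and 36.9% to 39.4% in Het, without overlap and within both kit versions (6.50 and 5.71 percentage points). The part of free RNA from mOBs of the same library in the shares of other cells was not tested. In dOBs the shares overlapped, at 39.1%, 36.6%, 46.8% and 46.5% in WT and 44.1%, 45.6%, 41.0% and 38.8% in Het (difference 0.108 percentage points, exact permutation test, n = 4 per group, adjusted p = 1). The dOB difference had opposite signs in the 2 kit versions, 7.02 percentage points in version 3 and -6.80 in 3.1.

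**Figure D5:**
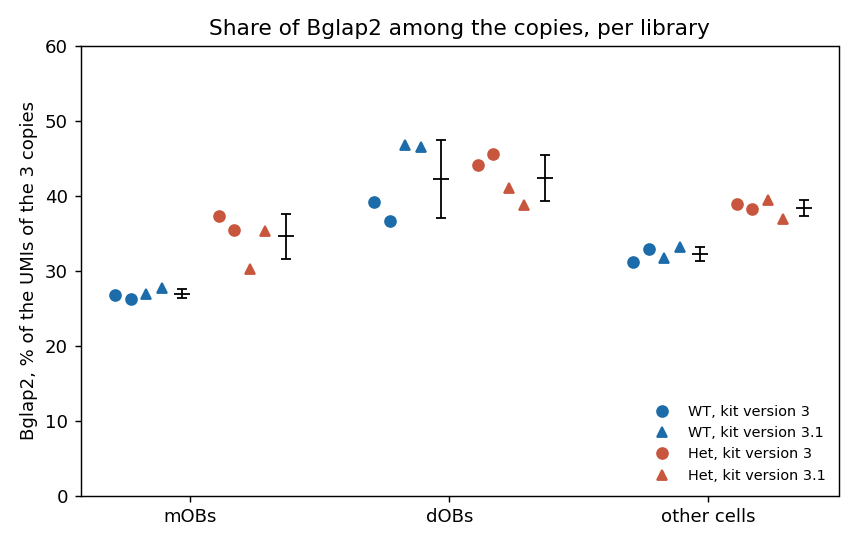
Bglap2 as percent of the UMIs of the 3 copies in mOBs, dOBs and other cells, with 1 point per library and mean ± SD of 4 libraries. WT and Het points are apart in mOBs (26.3% to 27.7% against 30.2% to 37.3%) and in other cells, and mixed in dOBs.

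The share of Bglap2 also moved with the osteocalcin content of the cell. In WT mOBs with over 2% of UMIs it was 24.98% to 26.8%, and in those with 0.05% to 0.2% it was 36.7% to 51.4%, beside 50%, 43.3% and 39.4% in Het 3, 4 and 7. Het 4, the Het library with the most mOBs, had 31.2% over 2% and 38.4% from 1% to 2%, above the WT values of 26.4% to 31.1% in that second class. From 0.5% to 1% it had 42.03%, above the 28.0% to 36.8% of WT 1, 5 and 6. From 0.2% to 0.5% the ranges overlapped, 36.7% and 43.7% in WT 5 and 6 against 45.4% and 35.1% in Het 3 and 4. Under 0.05% the order was the opposite, with 71.4%, 53.7% and 58.3% in WT 2, 5 and 6, above 33.3%, 42.7%, 46.8% and 41.4% in Het 3, 4, 7 and 8, on 28 to 230 UMIs a library. Too few Het cells had high content to compare the other libraries, and these classes were set after the shares were seen.

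Over OBs the share of Bglap2 less that in other cells of the same library was -3.62 ± 1.83 percentage points (SD, lower in 8 of 8 libraries, exact sign-flip test, adjusted p = 0.023), and for Bglap3 it was -0.938 ± 0.571 percentage points (lower in 8 of 8, exact sign-flip test, adjusted p = 0.023). The OB sums were carried by mOBs, which held most of their UMIs of the copies. In every library the share of Bglap2 was lower in mOBs than in other cells, but higher in dOBs (36.6% to 46.8%) than in other cells (31.2% to 39.4%). With each cell thinned to 2000 UMIs neither difference passed (-2.86 and -0.687 percentage points, exact sign-flip test, adjusted p = 0.094 and 1), and under 5% mitochondrial UMIs that of Bglap2 did not (-2.74, adjusted p = 0.25). Neither share differed detectably between kit versions in OBs, in a test that did not separate the genotypes. For Bglap2 it was 31.7% ± 5.68 in version 3 and 31.7% ± 3.83 in 3.1 (SD, n = 4 each, exact permutation test, adjusted p = 1), and for Bglap3 1.76% ± 0.493 and 3.09% ± 0.900 (exact permutation test, n = 4 each, adjusted p = 0.11). The equal means for Bglap2 came from opposite signs. The share was 27.4% and 26.4% in WT 1 and 2 and 28.3% and 28.5% in WT 5 and 6. It was 37.5% and 35.7% in Het 3 and 4 and 34.3% and 35.6% in Het 7 and 8.

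The genes most like the copies were sought as those with the highest Pearson r to their sum in log2(CPM + 1), centred within kit version, among 6703 genes with a mean of at least 20 CPM over the 24 library and stage sums. These points share libraries and stages that were set by Col1a1, so r is a description. Ranbp3l led with r = 0.93, followed by the non-coding RNA Snhg18 (0.93), the hepatic lipase gene Lipc (0.92), both type I collagen chains Col1a2 and Col1a1 (0.91 each), Smim14 (0.90), Serpinf1 (0.89), which encodes the secreted factor PEDF and is a gene of recessive osteogenesis imperfecta, and the collagen gene Col22a1 (0.89). Ranbp3l, Lipc and Col22a1 had a stage pattern like that of the copies. Their medians in eOBs, dOBs and mOBs were 3.12, 6.30 and 79.0 CPM, 1.39, 4.47 and 58.2 CPM, and 7.56, 22.3 and 342 CPM. Bglap itself went from 67.9 over 160.8 to 4016 CPM.

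Over the 8 mOB sums alone, with 5800 genes, the order was Fam46a (r = 0.97), a poly(A) polymerase gene of which loss causes brittle bone, Slc36a2 (0.96), an amino acid transporter, Cpz (0.96), a carboxypeptidase of the matrix, Insig2 (0.96), a brake on sterol synthesis, Fxyd6 (0.96), Svbp (0.96), Snhg18 (0.95) and Klhl33 (0.94). With 8 points that also differ by genotype and in Het 7, high values of r are easy to reach. Since the sum of the copies was split by genotype in these sums, no test of these genes in mOBs is given. In dOBs, Klhl33 was called lower in Het (log2 fold change -2.43, SE 0.30, edgeR adjusted p = 0.031), but no gene was called there with library totals, without kit version, with the replicate block, or without WT 1, WT 2, WT 6, Het 7 or Het 8.

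Of 20 listed genes of the mineralizing and late OB, 18 were tested in mOBs and none was called, beside 0.53% of all genes (51 of 9623). Of the 18, 9 were above and 9 below 0, and their median log2 fold change was -0.02, beside 0.01 over all genes. Spp1, which encodes osteopontin, had -0.60 (SE 0.17, edgeR adjusted p = 0.17), Col1a2 -0.55 (SE 0.19, adjusted p = 0.27), Sparc, osteonectin, -0.26 (SE 0.16, adjusted p = 0.61) and the transcription factor Mef2c 0.21 (SE 0.16, adjusted p = 0.70). In dOBs 17 were tested, none was called, beside 0.0101% of all genes, and the median was 0.01 beside -0.00 over all genes.

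Of 15 genes for the carboxylation and processing of osteocalcin and for related proteins, 12 were tested in mOBs and none was called, beside 0.53% of all genes (4 above and 8 below 0, median -0.21, beside 0.01 over all genes). Vkorc1, which recycles vitamin K, had -0.36 (SE 0.15, edgeR adjusted p = 0.36), Calu, an ER calcium-binding protein, 0.23 (SE 0.10, adjusted p = 0.43), the proprotein convertase Pcsk6 0.33 (SE 0.18, adjusted p = 0.52) and Mgp, the vitamin K-dependent inhibitor of mineralization, 1.30 (SE 0.42, adjusted p = 0.23). In dOBs none of 12 was called, beside 0.0101% of all genes, and the median was 0.17.

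Of 32 regulators of osteocalcin transcription, 29 were tested in mOBs, 1 was called and 18 were below 0 (median -0.15, beside 0.01 over all genes). Over all genes 0.53% were called, and 0.156% were called and lower in Het. The called gene was Vdr, the vitamin D receptor, whose ligand is known to lower osteocalcin transcription in the mouse. It was at 144.4 to 296.2 CPM in WT and 71.3 to 119.2 CPM in Het, without overlap (log2 fold change -1.09, SE 0.12, edgeR adjusted p = 0.0015), and in dOBs at 61.5 to 225.5 and 33.9 to 105.8 CPM, with overlap (-0.68, SE 0.34, adjusted p = 0.66). The AP-1 member Jund had 0.22 (SE 0.11, edgeR adjusted p = 0.47) and Twist1, which restrains RUNX2, -0.46 (SE 0.20, adjusted p = 0.42). In dOBs none of 30 was called, beside 0.0101% of all genes, and the median was -0.12.

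No neighbour of the copies on chromosome 3 was called, beside 0.53% of all genes in mOBs and 0.0101% in dOBs. At these shares no call was to be expected in so short a list. Of 10 listed neighbours 6 were tested in mOBs, with 3 above and 3 below 0 and a median of 0.04. Lamtor2, a lysosomal scaffold gene, had -0.14 (SE 0.10, edgeR adjusted p = 0.69), the lysosomal membrane gene Glmp -0.09 (SE 0.15, adjusted p = 0.89), Smg5, of nonsense-mediated decay, -0.31 (SE 0.19, adjusted p = 0.59) and Ubqln4, of proteasomal degradation, 0.27 (SE 0.24, adjusted p = 0.76). In dOBs none of 6 was called and the median was -0.06.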

How the data were processed

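Droplet libraries of parietal bone cells from 4 WT and 4 Het G610C pools were analysed. The authors aligned reads, counted UMIs and called cells with Cell Ranger (5.0.0 for kit version 3 and 6.0.1 for 3.1, per the file headers; build mm10, per the labels), and the deposited values are raw UMI counts per gene and cell. How reads matching several copies were assigned is not given in the sources used here. Limits on cells (500 genes, 10% mitochondrial UMIs) and on stages were those of the study, and the UMI minimums that select OBs were set here. Doublets were not removed. Levels were summed UMIs of a gene over summed UMIs of all genes. Depth was 30480239 to 85162035 UMIs per library; an interval given for a share of cells is exact (Clopper-Pearson, 95%). Sums per library were tested with edgeR 4.0.16 (filterByExpr, TMM, kit version as covariate, quasi-likelihood F, Benjamini-Hochberg over all genes) and DESeq2 1.42.0, both tested on simulated data, in R 4.3.3. Single values were tested by exact permutation of 4 against 4 libraries or by sign flips over 8, on log2(percent + 0.001), with Benjamini-Hochberg over families of 3 (sums), 12 (stages) and 6 (shares). The members, gene lists and rules were chosen with earlier results of these data known. Named genes were the copies, the 8 with the highest r over stage sums and the 8 over mOB sums, and from each list those called and the 4 with the largest mean CPM in mOBs. A gene that this rule names is not reported here. Alternatives covered scaling, filters, OB selection, denominators, thinning, free RNA and omission of each library.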

Additional observations from a re-analysis of the deposited data

Results flagged for a closer look

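Het 7 stood apart from the other 3 Het libraries in mOBs, with a sum of the copies of 0.0848%, Bglap at 0.0563% and Bglap2 at 0.0256% of UMIs. Among dOBs, WT 1 stood apart from the other WT libraries with Bglap2 at 0.0339%. A single library is marked in this way in about 1 of 20 groups by chance, and 52 groups were looked at. The share of Bglap3 in mOBs differed between Het and WT by -0.607 percentage points in kit version 3 and by 1.43 in 3.1, with every library of a kit version on the same side. The share of Bglap2 in dOBs differed in the same way, by 7.02 percentage points in kit version 3 and by -6.80 in 3.1. These differences between kit versions were not tested.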

How the results depend on the processing

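The direction of Het against WT for Bglap and Bglap2 in mOBs, dOBs, other cells and haematopoietic-like cells was the same under all alternatives run. In mOBs the contrast chose Bglap, so the number of copies with an adjusted p under 0.05 in edgeR, 1 beside 51 of 9623 genes, is a description and supports nothing. It was 0 without kit version (0 of 9623 genes), with the stricter OB selection (41 of 9338) and under 5% mitochondrial UMIs (59 of 9260), and 3 without a filter on low counts (536 of 18427) and with OBs of another class left out (249 of 8403), where Het 8 also dropped out. Without Het 8 alone it was 3 (154 of 9990), and without 1 library it was 0 to 3 beside 11 to 166 genes. Without the filter 2 copies were called in dOBs (269 of 19416 genes), 1 in eOBs (141 of 17733) and 1 in haematopoietic-like cells (1293 of 19763), and DESeq2 called 3 in other cells (1947 of 16502); leaving out 1 library left each of these counts at 0. With the stricter OB selection, Het 3 and 4 had under 10 eOBs and dropped out, and the eOB fold changes were -2.35 for Bglap and -2.61 for Bglap2. With OBs of another class left out, Het 7 and 8 had under 10 eOBs and dropped out with them. In the 6 libraries left the sum in eOBs reversed to 0.107 and Bglap in eOBs to 0.385, and the stage steps of the sum no longer passed the threshold, at 1.02 from eOBs to dOBs and at 1.27, a larger step than 0.962, from other cells to eOBs. The mean over cells gave 0.742 for the latter, not past the threshold. Without 1 library, Bglap3 in dOBs ranged from -0.522 to 0.107 (without WT 1). The step of Bglap3 from other cells to eOBs changed sign with the looser (0.0763) and the stricter selection (0.100) and ranged from -0.0759 to 0.0154 without 1 library.

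The kit difference in the share of Bglap2 over OBs ranged from -1.86 to 1.84 percentage points without 1 library and was 0.0299 with no limit on mitochondrial UMIs, an alternative added after the data were seen. The Het difference in dOBs was -2.66 with the stricter selection, -0.833 under 5% mitochondrial UMIs, -0.0418 with no such limit, and -1.78 to 1.62 without 1 library. In other cells it was 3.96 under 5% mitochondrial UMIs. OBs less other cells was no longer past the threshold for Bglap2 under 5% mitochondrial UMIs (-2.74) and thinned (-2.86), nor for Bglap3 thinned (-0.687). For Bglap3 the Het difference was -0.00482 in other cells when thinned, and without 1 library it ranged from -0.121 to 1.17 in dOBs, from -0.0985 to 0.842 in mOBs and from -0.229 to 1.17 in other cells. The cause of these changes was not tested, and the loss of 2 libraries and of mixed cells in eOBs cannot be told apart. Libraries of a kit version with the same number in their titles did not deviate together (r from -0.17 to 0.084 over genes). With these numbers as a replicate block, 26 genes were called in mOBs, the log2 fold change of Bglap was -2.32, and the sum in dOBs had p = 0.125, the smallest 4 pairs allow (exact sign-flip test). Depth limits Bglap3 and the eOBs of Het 7 and 8, with 32 and 11 UMIs of the copies.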

Other observations

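Barcodes that did not pass the limits on genes or mitochondrial UMIs held 1.44% to 12.9% of all UMIs of the copies in a library. Among them 3 to 58 a library had at least 500 genes, 10% or more mitochondrial UMIs and the OB markers and Col1a1 content of mOBs, and the sum of the copies there was 0.650%, 0.0113%, 0.410% and 0.176% of UMIs in WT 1, 2, 5 and 6 and 0.193%, 0.0231%, 0.0308% and 0.199% in Het 3, 4, 7 and 8. In 7 of 8 libraries this was more than in haematopoietic-like cells of the same library by over 10 times, and in each library it was below the level of kept mOBs.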
